A study of Caenorhabditis elegans with 12 samples.

Results

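The genes described here are the 6 vitellogenin genes of Caenorhabditis elegans, vit-1 to vit-6, and rme-2, the gene of the yolk receptor. They were the rows of the count table whose sequence names belong to these 7 genes in the WBcel235 annotation, 7 of 27928 rows in all. Vitellogenins are large lipid-carrying yolk proteins. In the adult hermaphrodite the intestine makes them and secretes them into the body cavity, and growing oocytes take them up through RME-2, a member of the low-density lipoprotein receptor family. The vitellogenin genes are known for being silent in larvae, coming on around the adult molt and reaching very high levels in egg-laying adults.

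The series holds RNA-seq counts of 12 pools, each of whole wild-type N2 worms kept at 20 °C, of which 6 spent 44 h on vitamin D and 6 on DMSO, its vehicle. The sources disagree on the dose (100 µM or 100 mM), on the worms in a pool (50 or 40) and on the start of treatment (L4 larvae, or worms 1 day of age). All groups had the same genotype and were pools of whole animals, so tissues cannot be separated, and in such bulk samples fewer cells of a type and less RNA per cell cannot be told apart. Protein homeostasis and lifespan are the study's theme by its title, and the comparison here asked whether yolk transcripts differed with vitamin D.

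Libraries held 30203731 to 38720736 counts. Some stood apart from the rest of their group. Vehicle libraries 2 and 3 lay at -42.4 and -52.3 on the leading principal component, computed from the 1000 genes with the highest variance, with the other vehicle libraries at 28.2 to 51.6. Vitamin D library 5 lay at 21.2, and the other vitamin D libraries at -41.9 to -3.65. Values of the 7 genes are therefore given library by library. All 2800 entries on chromosome III were listed at 0 counts in every library, but none of the 7 genes lies there.

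Of the vitellogenin genes, 5 lie on the X chromosome. In WBcel235 coordinates vit-5 spans 3403471 to 3408603, vit-4 spans 3558769 to 3563965, vit-3 spans 3567355 to 3572549, vit-2 spans 5101042 to 5106169 and vit-1 spans 7727889 to 7733168. The genes vit-3 and vit-4 are neighbours on the minus strand with 3389 bases between them. The sixth, vit-6, lies on chromosome IV at 8261157 to 8266459, and rme-2 lies on the same chromosome at 5470026 to 5473174. The vitellogenin genes have 5 or 6 exons and 4870 to 5088 bases of exon, and rme-2 has 7 exons and 2867 bases. Because vit-3, vit-4 and vit-5 are close paralogs, and vit-1 and vit-2 another such pair, the split of reads within each set is uncertain. A noncoding antisense gene overlaps the 5′ start of vit-3, another that of vit-4, and C42D8.9 overlaps the last bases of vit-2. No source used here gives the strand setting of the counting, so reads from overlapping genes could not be told apart.

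Yolk transcript varied widely among pools of the same treatment. The 6 vitellogenin genes together took 0.298% of the counts of vehicle library 1, 0.261% of library 4, 0.303% of library 5 and 0.221% of library 6. In vehicle libraries 2 and 3 their share was 0.0416% and 0.0390%. On vitamin D the share was 0.0125%, 0.0417%, 0.0332%, 0.0281% and 0.0353% in libraries 1, 2, 3, 4 and 6, but 0.810% in library 5. The highest and the lowest share were thus both in vitamin D libraries, and vehicle libraries 2 and 3 lay within the range of the 5 low vitamin D libraries. The group means were 0.194% ± 0.123 on vehicle and 0.160% ± 0.319 on vitamin D (SD, n = 6 and 6). Without vitamin D library 5 the vitamin D mean was 0.0302% ± 0.0110 (SD, n = 5). Wilson 95% intervals of these shares, which cover counting error only, reached at most 2.91% of the share to either side.

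**Figure D1:**
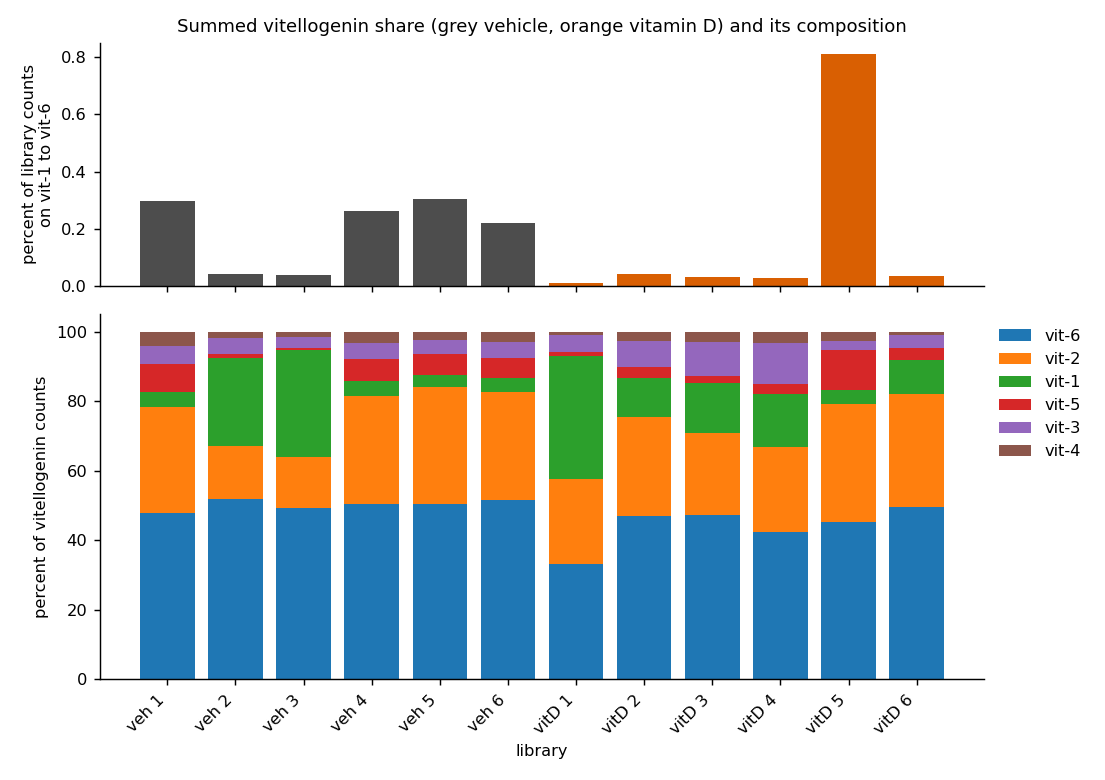
The upper bars give the percent of each library's counts on vit-1 to vit-6, and the lower stacked bars give the percent of those vitellogenin counts on each gene, for 6 vehicle (veh) and 6 vitamin D (vitD) libraries. Vitamin D library 5 reaches 0.810%, and vit-1 takes 25.1%, 30.8% and 35.4% of the vitellogenin counts in vehicle libraries 2 and 3 and vitamin D library 1.

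The gene vit-6, whose product is a precursor cleaved into a pair of smaller yolk polypeptides, held the largest part of the vitellogenin counts in every library except vitamin D library 1. Its level on the scale of CPM (counts relative to a library of 1e+06, scaled here by TMM factors) was 1469, 231, 204, 1361, 1483 and 1104 in vehicle libraries 1 to 6. In vitamin D libraries 1 to 6 it was 41.05, 195, 154, 118, 3516 and 169 CPM. Vehicle libraries 1, 4, 5 and 6 lay above the vitamin D libraries other than 5, while vehicle libraries 2 and 3 lay just above the highest of these. The groups overlapped because vitamin D library 5 exceeded the highest vehicle library 2.37-fold.

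Of the genes for the larger yolk polypeptides, vit-2 was the most abundant except in vehicle libraries 2 and 3 and vitamin D library 1, where vit-1 exceeded it. Transcript of vit-2 was at 933, 67.8, 59.7, 839, 981 and 668 CPM in vehicle libraries 1 to 6. On vitamin D it had 29.8, 117, 76.9, 68.2, 2646.5 and 110 CPM. Here vehicle libraries 2 and 3 were lower than 5 of the 6 vitamin D libraries, and vitamin D library 5 stood 22.6-fold above the next vitamin D library.

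The widest range of the family was that of vit-5. Vehicle libraries 1 to 6 had 247, 6.17, 2.65, 172, 176 and 124 CPM. Vitamin D libraries 1 to 6 had 1.45, 13.8, 6.74, 7.50, 891 and 11.6 CPM. The 12 values spanned 616-fold from the lowest to the highest, against 88.7-fold for vit-2 and 85.6-fold for vit-6. Vehicle library 3 and vitamin D library 1 were the lowest, and vitamin D library 5 was 64.8-fold above the next vitamin D library.

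The neighbours vit-3 and vit-4 were split in the same way. For vit-3, vehicle libraries 1 to 6 had 156, 19.7, 12.9, 127, 113 and 96.1 CPM. Its vitamin D libraries had 6.06, 30.0, 31.8, 33.4, 215 and 12.5 CPM. Vehicle libraries 2 and 3 again lay among the low vitamin D libraries. For vit-4, the vehicle values were 127, 8.58, 6.56, 87.5, 73.6 and 64.6 CPM. On vitamin D they were 1.31, 11.7, 9.37, 9.08, 207 and 3.54 CPM. The ratio of vit-3 to vit-4 was between 1.23 and 2.30 on vehicle and between 1.04 and 4.62 on vitamin D, with the highest value in vitamin D library 1, where vit-4 had the fewest counts of any member in any library, 48.

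The gene vit-1 did not follow the split among vehicle pools. It had 131, 112, 127, 112, 106 and 89.7 CPM in vehicle libraries 1 to 6, a range of 1.47-fold, where vit-2 ranged 16.4-fold and vit-5 93.1-fold over the same libraries. On vitamin D it had 43.7, 46.8, 46.7, 42.4, 296 and 33.3 CPM. All 5 vitamin D libraries other than 5 thus lay below all 6 vehicle libraries, vehicle libraries 2 and 3 included. Without vitamin D library 5, the groups were apart in this way for 6.13% of all tested genes, and for 2 of the 7 members, vit-1 and vit-6. For vit-6 the gap was narrow, from 195 to 204 CPM. With all 12 libraries the groups were apart for 3.9% of tested genes and for 0 of the 7. Vitamin D library 5 was the highest for all 7 members and was known to be high in vit-2 when they were chosen. Leaving it out favours separation of members lower with vitamin D, so 2 of 7 beside 6.13% is not a like comparison.

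As a result the ratio of vit-2 to vit-1 differed strongly among pools. It was 7.10, 7.46, 9.23 and 7.44 in vehicle libraries 1, 4, 5 and 6, but only 0.606 and 0.470 in vehicle libraries 2 and 3. With vitamin D it was 0.683, 2.50, 1.65, 1.61, 8.94 and 3.32. The ratio of vit-6 to vit-2 was steadier, at 1.51 to 1.65 in vehicle libraries 1, 4, 5 and 6 and 1.33 to 2.00 on vitamin D, but reached 3.41 in both vehicle libraries 2 and 3. Of all vitellogenin counts, vit-6 made up 33.3% to 51.9%, vit-2 14.5% to 34.1%, vit-1 3.62% to 35.4%, vit-3 2.77% to 11.95%, vit-5 0.643% to 11.5% and vit-4 1.04% to 4.15%. Wilson 95% intervals of these percentages reached at most 1.39 percentage points to either side.

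The receptor gene rme-2, expressed in oocytes, varied in the same direction as most vitellogenins but over a smaller range. It had 131, 58.4, 45.3, 161, 148 and 139 CPM in vehicle libraries 1 to 6. In vitamin D libraries 1 to 6 it had 58.5, 68.2, 66.4, 67.2, 233 and 60.7 CPM. Vehicle libraries 2 and 3 were below the lowest vitamin D library, and the vitamin D libraries other than 5 agreed to within 1.17-fold. Over all 12 libraries rme-2 spanned 5.15-fold, the least of the 7 genes, followed by vit-1 with 8.90-fold.

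**Figure D2:**
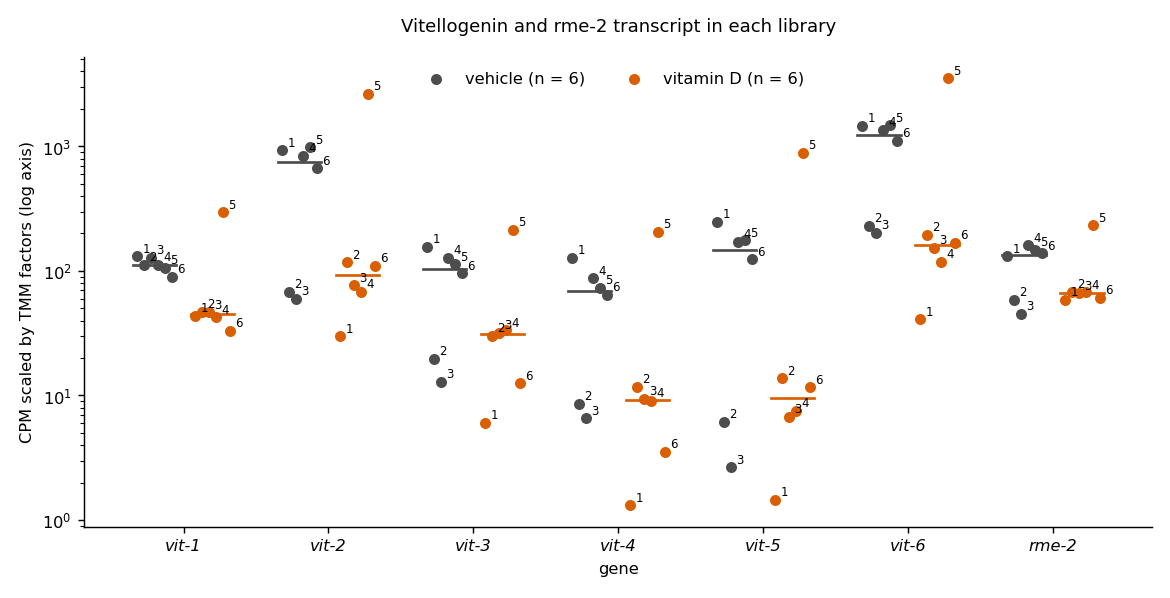
Each point is the TMM-scaled CPM of a gene in 1 library on a log axis, numbered by library, in grey for vehicle and orange for vitamin D, with a line at the median of each group of 6. For vit-2 to vit-6 and rme-2, vehicle libraries 2 and 3 sit with or close to the low vitamin D libraries, whereas vit-1 is at 89.7 to 131 CPM in all vehicle libraries, and vitamin D library 5 is the highest point of every gene.

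Levels per length, in CPM per kilobase of exon, gave the order of the genes. On vehicle the median was 243 for vit-6, 153 for vit-2, 47.0 for rme-2, 30.4 for vit-5, 22.05 for vit-1, 21.2 for vit-3 and 13.996 for vit-4. On vitamin D the median was 31.9 for vit-6, 23.3 for rme-2, 19.0 for vit-2, 8.88 for vit-1, 6.28 for vit-3, 1.96 for vit-5 and 1.87 for vit-4. Between libraries the levels of neighbours overlapped. On vehicle, for example, vit-6 had 193 ± 119 and vit-2 120 ± 85.6 CPM per kilobase (SD, n = 6). Within single libraries the order was more regular. Per kilobase the level of vit-6 was above that of vit-2, and that of vit-3 above that of vit-4, in all 12 libraries. The highest level was that of vit-6 in 10 of 12 libraries, and rme-2 was highest in vitamin D libraries 1 and 4. In vehicle libraries 2 and 3 vit-1 ranked next after vit-6, at 21.99 and 24.98 CPM per kilobase, ahead of rme-2 and vit-2, and vit-5 ranked last with 1.27 and 0.545.

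No vitellogenin gene and not rme-2 passed the test for a difference between the treatments when all 12 libraries were used. All 7 genes passed the filter on low counts, and 0 of 7 were called by edgeR's quasi-likelihood test at a Benjamini-Hochberg adjusted p under 0.05. Over all 13460 tested genes 3.66% were called, 1.75% higher and 1.9% lower with vitamin D. None of the 7 had an unadjusted p under 0.05, which 2247 of all tested genes had, and DESeq2 called 0 of the 6 for which it gave an adjusted p, with none given for vit-1. The log2 fold changes, vitamin D over vehicle, were -0.42 for vit-1 (SE 0.52), -0.22 for vit-2 (SE 1.14), -0.68 for vit-3 (SE 0.84), -0.61 for vit-4 (SE 1.14), 0.36 for vit-5 (SE 1.49), -0.48 for vit-6 (SE 1.02) and -0.30 for rme-2 (SE 0.42). Their median was -0.42, against 0.00 over all tested genes, and 6 of 7 were below 0. The edgeR adjusted p-values ran from 0.732 to 0.942. Exact permutation tests of the 12 log2 values of each gene, two-sided, gave p-values from 0.0887 for vit-1 to 0.422 for rme-2, where 0.00216 is the smallest possible.

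The intervals were wide. With 10 residual degrees of freedom the 95% interval of the log2 fold change ran from -2.75 to 2.31 for vit-2, from -2.97 to 3.68 for vit-5, from -2.75 to 1.79 for vit-6 and from -1.56 to 0.73 for vit-1. That of rme-2, from -1.24 to 0.64, was the narrowest. For vit-2 and vit-5 the interval thus held more than 4-fold differences in either direction, while for vit-1 and rme-2 its upper end was below a doubling.

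Vitamin D library 5 decided these values. Without it 2 of 7 genes were called, both lower with vitamin D, where 4.63% of all 13513 genes tested were called, 2.28% higher and 2.35% lower. Transcript of vit-1 was then lower (log2 fold change -1.41, SE 0.11, edgeR adjusted p = 9.37e-05), with 42.6 ± 5.55 CPM with vitamin D (SD, n = 5) against 113 ± 15.02 on vehicle (SD, n = 6). Transcript of vit-6 was lower too (log2 fold change -2.85, SE 0.64, edgeR adjusted p = 0.0314), with 136 ± 59.7 against 975.3 ± 603 CPM. The other 5 genes did not pass. Their log2 fold changes were -2.88 for vit-2, -1.95 for vit-3, -3.14 for vit-4, -3.89 for vit-5 and -0.83 for rme-2, with edgeR adjusted p-values of 0.0626, 0.135, 0.0621, 0.0706 and 0.159. The median of the 7 was -2.85, against -0.01 over all genes tested in that fit. The labels give no ground for setting that library aside, and the fit without it rests on 5 vitamin D pools. Vitamin D library 5 was the highest for all 7 genes and was known to be high in vit-2 when they were chosen. Leaving it out thus lowers the vitamin D means of these genes by construction. The calls and p-values of this fit are descriptive, and 2 of 7 beside 4.63% is not a like comparison.

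Without vehicle libraries 2 and 3 none of the 7 genes was called, although 28.6% of all 13723 genes tested in that fit were. All 7 log2 fold changes were then below 0, from -0.22 for vit-5 (SE 1.61) to -1.17 for vit-3 (SE 0.85). The edgeR adjusted p-values were between 0.260 and 0.938. Vitamin D library 5 was still included there, and the SE of vit-2, vit-4, vit-5 and vit-6 stayed above 1.

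**Figure D3:**
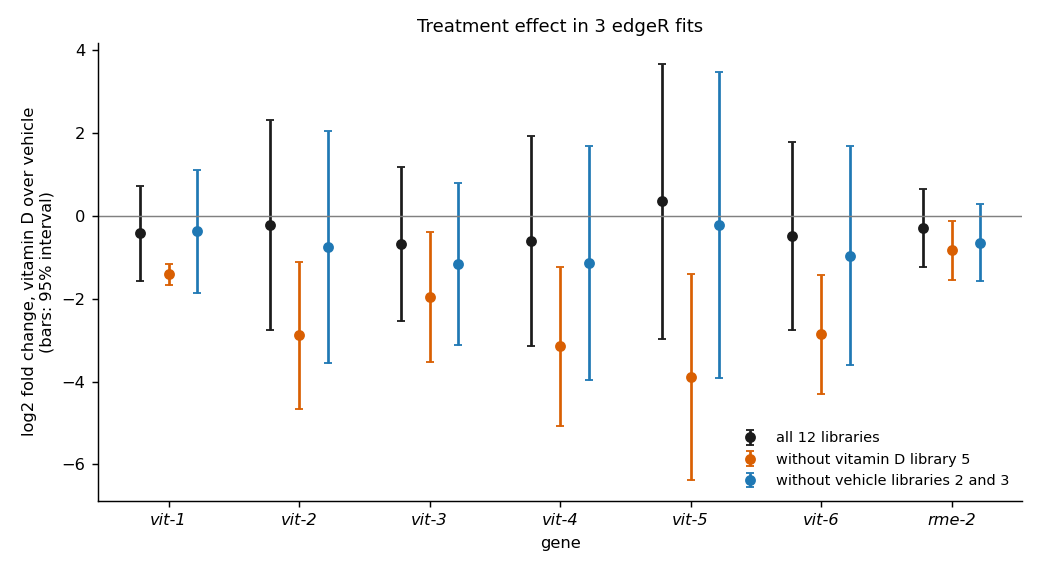
Points are log2 fold changes of each gene, vitamin D over vehicle, with 95% intervals, from edgeR fits to all 12 libraries (black), without vitamin D library 5 (orange) and without vehicle libraries 2 and 3 (blue). With all libraries each interval includes 0. Without vitamin D library 5 vit-1 is at -1.41 and vit-6 at -2.85, the genes called in that fit.

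The summed level of oocyte transcripts was low and high in the same libraries as rme-2, over a smaller range than vit-2 to vit-6. The oocyte list, of genes for oocyte RNA-binding proteins and the eggshell, had 14 of its 20 members tested, of which 0 passed in either direction (median log2 fold change -0.25). Their summed level was 862 and 781 CPM in vehicle libraries 2 and 3 and 1722 to 2176 CPM in the other vehicle libraries. Vitamin D library 5 had 2872 CPM and the rest of its group 942 to 1137 CPM. As for rme-2, vehicle libraries 2 and 3 were the lowest in this sum and vitamin D library 5 the highest. The largest single part of it was gld-1, with 303 to 686 CPM over all libraries. Single genes could range wider, such as puf-5 with 14.6 to 188 CPM. Not every gene of the list kept the order of the sum. The gene oma-1, which encodes a zinc-finger protein of maturing oocytes, had 61.8 and 49.0 CPM in vehicle libraries 2 and 3. It had 52.9 to 58.8 CPM in the vitamin D libraries other than 5, below vehicle library 2, and 121 CPM in vitamin D library 5. The eggshell gene cbd-1 had 123 CPM in both vehicle libraries 2 and 3, 254 to 306 CPM in the other vehicle libraries and 477 CPM in vitamin D library 5. Listed at 0 were puf-3 and 5 genes of chromosome III, namely egg-1, egg-2, cpg-1, cpg-2 and glp-1.

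Of 47 sperm genes, mostly major sperm protein genes, 42 were tested and 0 passed (median -0.68). Their summed level was 931 and 779 CPM in vehicle libraries 2 and 3, 4237 to 5929 CPM in the other vehicle libraries, 1785 to 2309 CPM in the vitamin D libraries other than 5, and 3919 CPM in vitamin D library 5. Sperm transcript was therefore highest in vehicle libraries, whereas yolk and oocyte transcript were highest in vitamin D library 5. The members spe-6, spe-41, msp-31, msp-33 and msp-45 were listed at 0. With a sperm score as a covariate in the fit, none of the 7 yolk genes was called, and log2 fold changes were -0.55 for vit-6 and -0.11 for rme-2.

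Of 14 intestinal markers 13 were tested and 0 passed (median -0.08), and act-5, on chromosome III, was listed at 0. Their summed level was 6608 to 8132 CPM with vehicle and 6814 to 8022 CPM with vitamin D. It was highest in vehicle libraries 2 and 3, and vitamin D library 5 had 6814 CPM. A large part of this sum was the protease gene asp-1, with 2693 to 4297 CPM over all libraries, so that it says little of the other markers. Some of these, picked out after their values were seen, did split with the libraries. The ferritin gene ftn-1 had 15.98 and 16.1 CPM in vehicle libraries 2 and 3, 3.51 to 5.08 CPM in the other vehicle libraries and 1.59 to 3.58 CPM with vitamin D (log2 fold change -1.69, edgeR adjusted p = 0.0532). The metallothionein gene mtl-2 had 163 and 149 CPM in vehicle libraries 2 and 3, 57.8 to 106 CPM in the other vehicle libraries and 26.3 CPM in vitamin D library 5. The intestinal intermediate filament gene ifb-2 had the opposite order, with 256 and 287 CPM in vehicle libraries 2 and 3, 364 to 436 CPM in the other vehicle libraries and 387 CPM in vitamin D library 5. The gene of the intestinal GATA factor ELT-2, an activator of vitellogenin genes, had 33.8 to 42.4 CPM with vehicle and 31.1 to 40.1 CPM with vitamin D, with its lowest value in vitamin D library 5.

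Transcript of the genes on the embryo list was low but not absent. Of 14 such genes 4 were tested and 0 passed (median 0.03), with summed levels of 28.6 to 36.4 CPM with vehicle and 28.6 to 37.6 CPM with vitamin D. Most of this was elt-1, a GATA factor gene of the embryonic epidermis, with 15.001 to 25.8 CPM, and hlh-1, a gene of body wall muscle, with 4.91 to 8.85 CPM. The sum thus says little of the other markers and does not show embryo content. The endoderm genes end-1 and end-3 had 0 to 15 and 5 to 23 counts in a library, med-1 had 0 to 3 and sdz-38 0 to 15. The other 6 genes, among them tbx-37, tbx-38 and pal-1, are on chromosome III, where all entries were listed at 0, so their zeros carry no information. The part of germline content in the yolk gene values was not tested. The fit with the sperm score cannot test it, as that score does not stand for oocyte content. Vitamin D library 5 had the highest oocyte sum (2872 CPM), but its sperm sum (3919 CPM) was below that of vehicle libraries 1, 4, 5 and 6.

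**Figure D4:**
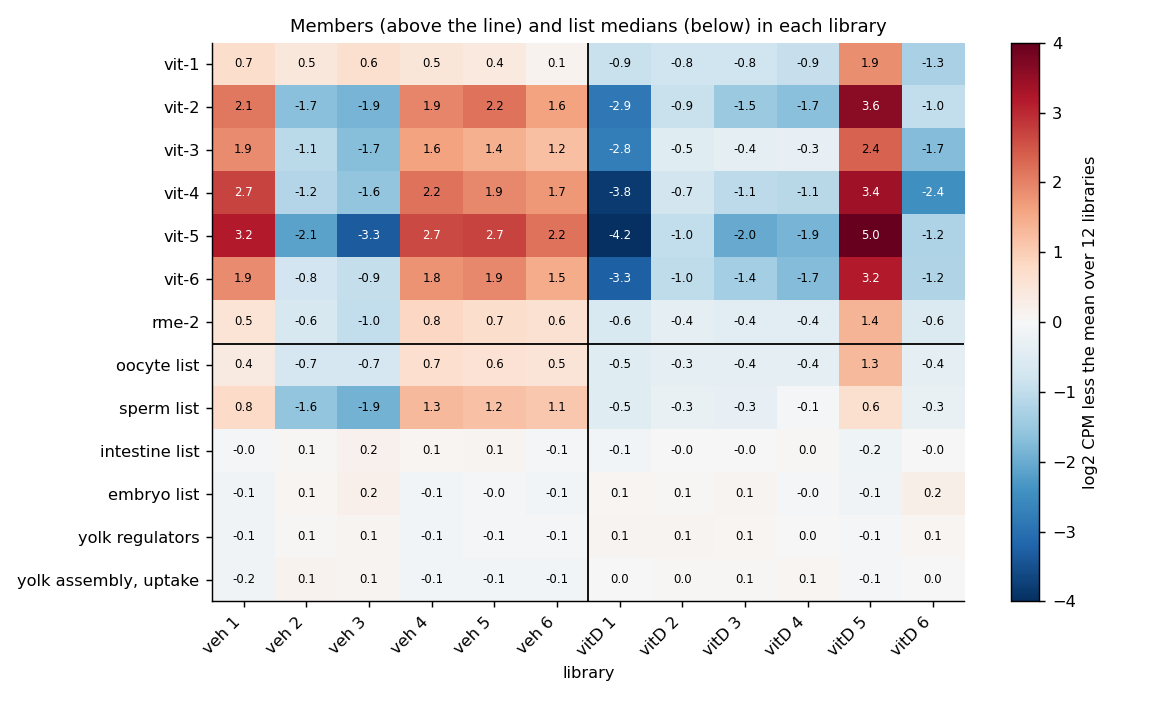
Colours and numbers give log2 CPM less the mean over 12 libraries, for each member above the line and as the median over each list below it, with vehicle (veh) libraries left and vitamin D (vitD) libraries right. The oocyte list and rme-2 lie below their means in all vitamin D libraries except 5, and also in vehicle libraries 2 and 3, while the intestine list stays between -0.18 and 0.16.

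Genes with the profile most like a member's were searched among the 8099 genes averaging 10 CPM or more, leaving out the 7 members. Likeness was measured by the root mean square difference between log2 profiles centred over the 12 libraries. Closest to vit-2 among these were the cuticle collagen gene col-179 (0.46), D1054.10 (0.51) and the collagen gene col-62 (0.64). The SD of vit-2 itself over the libraries was 2.13. Transcript of col-179 was 33.5 to 49.9 CPM in vehicle libraries 1, 4, 5 and 6, 2.31 and 2.07 CPM in vehicle libraries 2 and 3, and 124 CPM in vitamin D library 5. Among the vitellogenins, vit-6 was closer to vit-2 (0.43) than any of these, vit-4 (0.61) was closer than col-62, and vit-1 was farther (1.54). The genes outside the family closest to vit-6 were D1054.10 (0.52), col-179 (0.72) and F55B11.2 (0.85), while vit-2 (0.43), vit-4 (0.57) and vit-3 (0.67) were all closer than col-179.

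The profile of rme-2 had much closer matches. They were gln-6, a glutamine synthetase gene (0.099), F18A1.7 (0.103) and egg-5, a gene of the oocyte-to-embryo transition (0.103), with an SD of rme-2 of 0.76. Levels of egg-5 were 15.5 and 13.4 CPM in vehicle libraries 2 and 3, 32.9 to 44.3 CPM in the other vehicle libraries and 51.4 CPM in vitamin D library 5. Its near-identical paralog egg-4 makes the split of reads between both uncertain. The closest vitellogenin to rme-2 was vit-1 (0.69), and the farthest was vit-5 (2.15). This measure also grows with a difference in SD, and the SD was 0.93 for vit-1 and 2.98 for vit-5. The order thus does not show that vit-1 rose and fell with rme-2, as vit-1 lacked its low values in vehicle libraries 2 and 3.

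**Figure D5:**
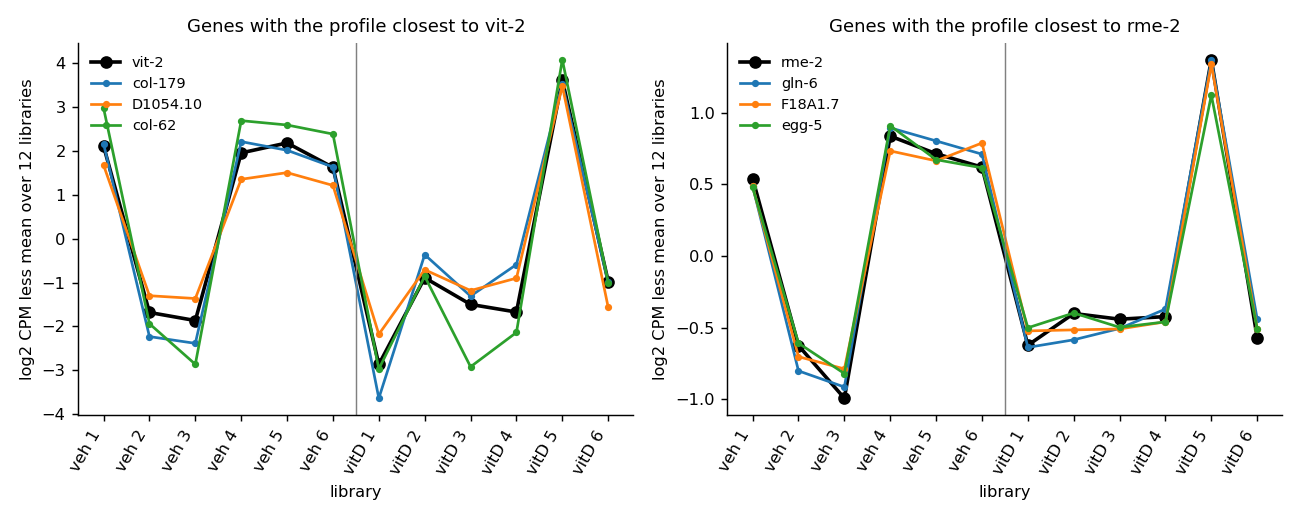
Lines give log2 CPM less the mean over the 12 libraries for vit-2 (left, black) and rme-2 (right, black) with the 3 most similar genes of each in colour. All lines dip at vehicle libraries 2 and 3 and peak at vitamin D library 5, and the scale of the right panel is narrower.

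Of 18 known regulators of vitellogenin genes 16 were tested and 0 passed, with a median log2 fold change of 0.12 and single values from -0.44 (elt-7, a GATA factor gene) to 0.33 (mab-3). The insulin receptor gene daf-2 and the Smad gene sma-3, both on chromosome III, were listed at 0. The homeobox genes unc-62 and ceh-60 encode partners that activate vitellogenin transcription in the adult intestine. Their levels were 73.5 ± 13.96 and 18.5 ± 4.50 CPM with vehicle and 78.4 ± 5.49 and 14.1 ± 2.17 CPM with vitamin D (SD, n = 6 and 6), with edgeR adjusted p-values of 0.721 and 0.268. In vehicle libraries 2 and 3 ceh-60 was at 13.4 and 12.8 CPM, and in the other vehicle libraries at 18.7 to 23.6 CPM. In vitamin D library 5, where vitellogenin transcript was highest, ceh-60 was at 16.4 CPM, the highest of the vitamin D libraries at 11.3 to 16.4 CPM and below these other vehicle libraries.

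The zinc-finger gene pqm-1 had 32.5 ± 6.20 CPM with vehicle and 24.8 ± 3.64 CPM with vitamin D (SD, n = 6 and 6), and the difference did not pass (log2 fold change -0.39, SE 0.14, edgeR adjusted p = 0.155). Its product acts with the TORC2 and SGK-1 pathway on vitellogenin expression. Levels of lrp-2, another low-density lipoprotein receptor family gene that promotes yolk protein expression, were 72.4 ± 12.4 and 86.9 ± 6.69 CPM (0.26, SE 0.11, edgeR adjusted p = 0.213). The stress factor genes daf-16 and skn-1, both with roles in restraining yolk production or responding to its lipids, had log2 fold changes of 0.10 and 0.23, with edgeR adjusted p-values of 0.461 and 0.0834.

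Of 18 genes for the assembly and uptake of yolk 15 were tested. A single one, rme-8, passed and was higher, 0 were lower and 14 did not pass, with a median log2 fold change of 0.04. The chaperone cofactor encoded by rme-8 works on endosomes after endocytosis. Its transcript was 204, 243, 230, 228, 233 and 238 CPM in vehicle libraries 1 to 6. On vitamin D it was 277, 281, 260, 272, 250 and 255 CPM. All vitamin D libraries lay above all vehicle libraries, by a narrow gap, and the groups were apart for 3.9% of all tested genes. The difference passed the test (log2 fold change 0.21, SE 0.05, edgeR adjusted p = 0.0416), as it did for 3.66% of all tested genes. This call was lost in 14 of 21 alternatives, among them the removal of the trend on exon length (0.03, edgeR adjusted p = 0.891). In the other alternatives that lost it the log2 fold change stayed between 0.18 and 0.23. The slope of log2 level on log2 exon length ran from -0.14 to 0.05 in vehicle libraries and from 0.01 to 0.11 in vitamin D libraries.

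The gene dsc-4 encodes the large subunit of the microsomal triglyceride transfer protein, which loads lipid onto vitellogenin. It had 196 ± 30.4 CPM with vehicle and 250 ± 22.5 CPM with vitamin D (SD, n = 6 and 6), and the difference did not pass (log2 fold change 0.35, SE 0.10, edgeR adjusted p = 0.0734). It was called in 5 of 21 alternatives, with edgeR or DESeq2 adjusted p-values from 0.00117 to 0.312 over all of them. Among the regulators that were fixed list genes, skn-1 was called in 3, ceh-60 and lrp-2 in 2 each and pqm-1 and unc-62 in 1 each. Without vehicle libraries 2 and 3, 10 genes of the whole regulator list were called (7 higher, 3 lower), where 28.6% of all tested genes were. With the sperm score 5 of the list were called (4 higher, 1 lower), where 1677 of 13460 tested genes were. For dsc-4, vehicle libraries 2 and 3 had 228 and 241 CPM and the other vehicle libraries 171 to 184 CPM, the opposite order to that of vit-2 to vit-6. The recycling genes rme-1 and rab-11.1 had 429 ± 18.4 and 661 ± 86.5 CPM with vehicle and 440 ± 23.8 and 590 ± 21.1 CPM with vitamin D, with edgeR adjusted p-values of 0.771 and 0.327. The clathrin and adaptor genes chc-1 and apb-1 and the endosomal gene rab-35, all on chromosome III, were listed at 0.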

How the data were processed

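The authors deposited raw read counts per gene for 12 libraries of paired 50 base reads with an average insert of 200 bases, per the labels' protocols. They also deposited CPM values, which equalled count over library total to within 2.91e-11 and were used for that check only. The submitters' processing notes name edgeR 3.12.1. The aligner, genome build, strand and treatment of reads that fit several genes are not stated by any source used here. Columns were matched by sample description. Of 27928 sequence names 27187 matched a single gene of the WBcel235 annotation, 3 matched several and 738 none.

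Counts were tested with edgeR 4.0.16 in R 4.3.3, with filterByExpr (minimum count 10, minimum total 15), TMM factors, treatment as the only term and robust quasi-likelihood dispersions. A gene was called at an adjusted p under 0.05, by Benjamini-Hochberg over all tested genes. Alternatives were DESeq2 1.42.0, other scalings and filters, a sperm score as covariate, removal of a spline on exon length, a replicate block, and fits without libraries. Log2 levels used a prior count of 2. The fit was tested on simulated data. Pools are independent replicates per the series text, and the tests set the difference between treatments against the spread between pools.

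Members and gene lists were chosen with earlier results of these data known. Named were the 7 members, list genes past the threshold (up to 4 per direction), 13 fixed list genes and the 3 genes most like vit-2, vit-6 and rme-2. Also named, after their values were seen, were elt-7, mab-3, lin-29, gld-1, puf-5, asp-1, ftn-1, mtl-2, ifb-2, elt-1 and hlh-1.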

Additional observations from a re-analysis of the deposited data

Results flagged for a closer look

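For each of the 7 genes and for the summed vitellogenin share, 1 library lay far from the other 5 of its group. In every case it was vitamin D library 5. Its gap to the next library, over the range of the group, exceeded Dixon's 95% critical value for 6 values. It had 296 CPM of vit-1, 2646.5 of vit-2, 215 of vit-3, 207 of vit-4, 891 of vit-5, 3516 of vit-6 and 233 of rme-2, and its vitellogenin share was 0.810% of counts. The 8 flags came from 16 sets of 6 values. Chance flags about 5% of such sets, but these sets share libraries, and vitamin D library 5 was known to be high in vit-2 when the genes were chosen, so the flags describe that library and are no independent evidence. No vehicle library was flagged, but the rule measures the gap of 1 extreme library to the next. It could not flag a pair that was low together, as vehicle libraries 2 and 3 were for vit-2 (67.8 and 59.7 CPM).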

How the results depend on the processing

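Of 21 alternatives, leaving out vitamin D library 5 was the only 1 in which any of the 7 genes was called (vit-1 and vit-6). That library was known to be high in vit-2 when the genes were chosen. DESeq2 gave no adjusted p for vit-1. The number of all genes called, 492, became 1147 with DESeq2, 1677 with the sperm score as a covariate, 213 with the trend on exon length removed and 3924 without vehicle libraries 2 and 3, and was 260 to 625 when single libraries were left out. Among genes in the fixed lists 1 was called. This became 6 with DESeq2 and with total counts, 2 with RLE factors and 23 with the sperm score. It became 57 without vehicle libraries 2 and 3, and 0 with all counted genes or the length trend removed. Leaving out single libraries gave 0 to 2. Without vehicle libraries 2 and 3, 28.6% of all tested genes were called. The list calls there were sperm 33, regulators 10, assembly and uptake 7, intestine 6, embryo 2 and oocyte 0. In the main fit these lists had 42, 16, 15, 13, 4 and 14 tested genes. The regulator and intestine lists share genes. Of the 23 calls with the sperm score, 7 were on the sperm list, from which the score was made, so these are no independent result. With total counts the share of higher calls was 507 of 730, against 236 of 492.

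Leaving out single libraries moved the log2 fold change of vit-1 between -1.41 and -0.25, of vit-2 between -2.88 and 0.031, of vit-5 between -3.89 and 0.68 and of vit-6 between -2.85 and -0.23, with the lowest value in each case without vitamin D library 5. Without vehicle libraries 2 and 3, vit-5 reversed to -0.22. Uncalled genes near 0 also changed sign. With total counts elt-2 became 0.026, without vehicle libraries 2 and 3 it was 0.021, and it ran from -0.073 to 0.017 without single libraries. With the sperm score col-179, col-62 and F55B11.2 became 0.22, 0.044 and 0.076. With the length trend removed daf-16, unc-62 and rme-1 became -0.035, -0.072 and -0.091. D1054.10 was -0.30 without vehicle libraries 2 and 3 and ran from -2.19 to 0.42 without single libraries. Their causes were not tested.

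With the replicate block 136 genes and 0 list genes were called, none of the 7 among them, and vit-5 and D1054.10 reversed to -1.51 and -1.03. Labels give no meaning to the shared numbers. Same-numbered libraries had correlations of their deviations from -0.418 to 0.441, and only vehicle library 5 correlated best with its own number. Members had 48 to 141914 counts in a library. How reads shared by vit-3, vit-4 and vit-5 were assigned is not known, and its effect on their levels was not tested.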

Other observations

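A pair of regulators outside the rule for named genes was picked out after the values were seen. The gene mab-3 encodes a DM-domain factor known to repress vitellogenin genes in the male intestine. It had 36.1 and 36.9 CPM in vehicle libraries 2 and 3, 2.96 to 12.1 CPM in the other vehicle libraries and 14.2 to 29.9 CPM on vitamin D, with 17.9 CPM in vitamin D library 5. The zinc-finger gene lin-29, which controls the larval-to-adult switch of the hypodermis, had 101 and 106 CPM in vehicle libraries 2 and 3, 38.6 to 59.6 CPM in the other vehicle libraries and 61.4 to 105 CPM on vitamin D. Among vehicle libraries both were thus high where vit-2 to vit-6 were low. Neither passed the test between treatments, with edgeR adjusted p-values of 0.825 for mab-3 and 0.597 for lin-29.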
